A study of Drosophila melanogaster with 24 samples.

Results

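Female flies labelled RIL 58 and RIL 89 differed at 54 of 22575 array spots over antenna, first legs and proboscis. Of these spots, 25 were higher in RIL 58 and 29 were higher in RIL 89. The 54 come from a model of all 24 samples, and 11 of them were also called from the 12 female samples alone. At each of the 54 the difference ran the same way in all 3 tissues, as at 43.3% of all spots. Of the 54, 22 differed by more than 1 on the log2 scale. In male samples none of the 54 was called between the RIL labels. In females, replicates 1 and 2 against replicates 3 and 4 coincide with the RIL label. The male difference between these replicates had the female sign at all 54, as at 59.6% of all spots. It was called at 20 of the 54, against 0.151% of all spots.

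The comparison uses the 12 female samples of a series of 24 from Drosophila melanogaster, chosen by the description field of their labels. That field gives RIL 58 for 6 of them, replicates 1 and 2 of each tissue, and RIL 89 for the other 6, replicates 3 and 4 of each tissue. All animals were young adults, dissected 1 to 2 hours after eclosion. The antennae were taken as the third segment with the arista, the first legs from the distal tibia outward, and the proboscis as the mouthpart. The males hold 6 samples of RIL 58 and 6 of RIL 89, from the same tissues and age. The series text names 1 isogenic line, WI89, for the whole study, while the sample descriptions give 2 RIL numbers, and the labels do not say how these are related. They give no further genotype, no treatment and no number of flies per sample.

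In fly genetics RIL usually stands for recombinant inbred line, although the labels do not spell it out. Such lines are made by crossing strains and inbreeding the offspring, so that each line carries its own fixed mosaic of the parental genomes and lines can differ in gene expression throughout the body. Flies smell chiefly with the antenna, whose neurons express odorant receptors and whose support cells secrete odorant-binding proteins. Taste bristles stand on the first legs and on the tip of the proboscis.

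A sample is a single dye channel, scanned from an array with 105 rows and 215 columns of spots. The files pair no spot with a gene, so spots are given by number, at most 2 per direction in a comparison. For the same reason no gene can be named, no marker gene could be looked up to check the tissues, and no probe sequence can be shown. A level here means the normalised log2 signal after subtracting the fitted effects of dye and of array set, which is described below. A difference is RIL 58 minus RIL 89 on that scale. In whole tissue, fewer cells of a type and less RNA per cell cannot be told apart. Nothing in the labels says whether replicates are separate flies or cultures. The p-values therefore refer to the spread between samples alone, and that spread could be technical.

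Line, dye and array were unevenly spread over the female samples. RIL 58 had 5 samples in Cy3 and 1 in Cy5, and RIL 89 had 2 in Cy3 and 4 in Cy5. In the first legs both RIL 58 samples were Cy3 and both RIL 89 samples were Cy5. The median signal above background was 102.5 to 148.3 in the female Cy3 samples and 18.2 to 49.2 in the female Cy5 samples, beside median backgrounds of 47.3 to 64.7 over the 12. The 24 samples pair up into 12 arrays by identical quality marks. On 8 arrays the channels correlated at 0.628 to 0.737 across spots, and on the other 4 at 0.855 to 0.969. The set of 4 held 2 RIL 58 and 4 RIL 89 female samples. No array mixed replicates 1 or 2 with replicates 3 or 4, so an array effect and the difference between these replicate pairs cannot be told apart.

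Because of this layout the comparison was fitted in limma in both of the following ways, with calls at a Benjamini-Hochberg adjusted p under 0.05. With the 12 female samples alone, and tissue and 1 dye effect as terms, 11 spots were called, which is 0.0487% of those tested. Of these, 5 were higher in RIL 58 and 6 were higher in RIL 89, and 1000 spots had an unadjusted p under 0.05. With all 24 samples in the model, each array set had its own level and dye effect, estimated from both sexes. The female line difference was a separate term. That fit called 54 spots, 0.239% of those tested, among them all 11 of the first fit. All 54 had the same sign in the fit to females alone, where 51 had an unadjusted p under 0.05. The count of 54 was 32 without the RIL 58 proboscis replicate 1, 31 without the RIL 89 proboscis replicate 3 and 32 without the RIL 89 proboscis replicate 4. The count of 11 became 0 without the RIL 58 proboscis replicate 1 and 5 without the RIL 89 antenna replicate 4. It was 7 without the RIL 58 antenna replicate 2 or the RIL 58 leg replicate 1. It was 6 without the RIL 58 leg replicate 2, the RIL 89 leg replicate 4 or the RIL 89 proboscis replicate 3, and 8 to 13 without any of the remaining 5.

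The male samples go against the pairing of label and replicate number seen in females. In male antenna and first legs, RIL 58 is written for replicates 2 and 3 and RIL 89 for replicates 1 and 4. In the male proboscis RIL 58 is written for replicates 1 and 4 and RIL 89 for replicates 2 and 3. Thus 6 of the 12 male samples carry the label that the same replicate number does not have in females. The 54 spots were set against the midpoint of the female line means in every sample. Male replicates 1 and 2 had 40 to 50 of the 54 spots on the RIL 58 side, and male replicates 3 and 4 had 6 to 17. By label, male samples called RIL 58 had 6 to 49 spots on that side and those called RIL 89 had 9 to 50. At these spots the males parted by replicate number, 1 and 2 against 3 and 4, and overlapped almost wholly by label. The female samples named RIL 58 below are therefore also female replicates 1 and 2, and those named RIL 89 are also replicates 3 and 4. In females alone these descriptions cannot be told apart.

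**Figure D1:**
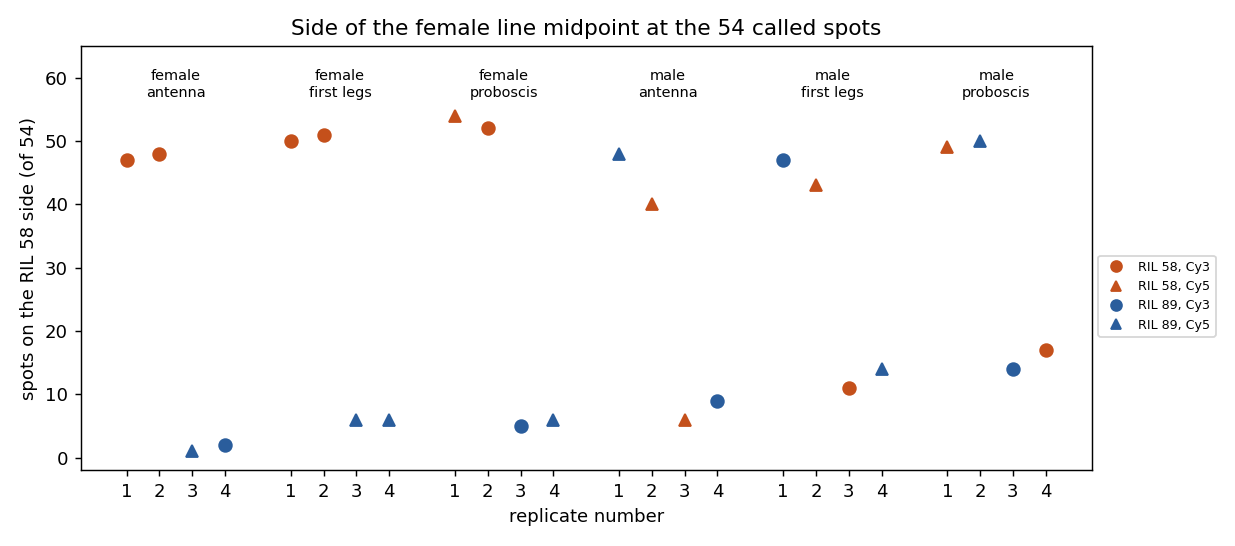
Number of the 54 called spots, per sample, that lie on the RIL 58 side of the midpoint between the female line means, by sex, tissue and replicate number; colour gives the RIL label and shape the dye. Female RIL 58 samples have 47 to 54 spots on that side and female RIL 89 samples 1 to 6, which follows from how the spots were chosen. In males, replicates 1 and 2 have 40 to 50 and replicates 3 and 4 have 6 to 17, with both labels among the high and the low samples.

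Among the spots higher in RIL 58, spot 11601 (row 54, column 206) had the largest difference. Its antenna levels were 9.0 and 7.36 in RIL 58, against 5.89 and 5.28 in RIL 89. Its first leg levels were 8.37 and 7.54 in RIL 58, against 5.94 and 6.10 in RIL 89. Its proboscis levels were 7.08 and 7.19 in RIL 58, against 5.33 and 6.0 in RIL 89. The lowest RIL 58 value exceeded the highest RIL 89 value, and within RIL 58 the antenna samples were 1.64 apart. Before the fitted effects were subtracted, these antenna samples were at 9.61 and 6.93. The RIL 89 values of 5.28 and 5.33 were then 5.90 and 5.94. The mean was 7.76 ± 0.76 in RIL 58 and 5.76 ± 0.36 in RIL 89 (SD, n = 6 each). The fitted difference was 2.06 ± 0.34 (SE; limma adjusted p = 0.0154), but in the fit to females alone it was 1.73 ± 0.47 (SE) with an adjusted p of 0.815.

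Spot 1856 (row 9, column 136) was next. Its antenna levels were 8.87 and 7.70 in RIL 58, against 6.29 and 6.04 in RIL 89, and its first leg levels were 7.99 and 7.09 in RIL 58, against 6.03 and 6.02 in RIL 89. Its proboscis levels were 7.73 and 7.44 in RIL 58, against 6.09 and 6.30 in RIL 89. The RIL 89 samples lay together near the median of all normalised values, 6.28, while the RIL 58 samples spread over 1.78 log2 units above it. The difference was 1.77 ± 0.29 (SE; limma adjusted p = 0.0137), and the adjusted p was 0.208 in females alone.

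Among the spots higher in RIL 89, spot 10228 (row 48, column 123) was bright in every RIL 89 sample. Its antenna levels were 7.76 and 7.81 in RIL 58, against 9.96 and 10.29 in RIL 89. Its first leg levels were 8.0 and 7.77 in RIL 58, against 10.59 and 9.97 in RIL 89. Its proboscis levels were 7.52 and 7.17 in RIL 58, against 10.18 and 9.94 in RIL 89. Both lines stood above the median level in all tissues, so this difference does not start from the dim end of the scale. The difference was -2.45 ± 0.25 (SE; limma adjusted p = 0.000335), and -2.64 ± 0.23 (SE; adjusted p = 0.00343) in females alone.

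Spot 16313 (row 76, column 188) was dim in every RIL 58 sample. Its antenna levels were 6.27 and 6.32 in RIL 58, against 8.58 and 8.39 in RIL 89. Its first leg levels were 6.39 and 6.38 in RIL 58, against 7.99 and 8.28 in RIL 89. Its proboscis levels were 5.99 and 6.31 in RIL 58, against 8.57 and 8.64 in RIL 89. All RIL 58 samples stood within 0.40 of one another and below every RIL 89 sample. The difference was -2.19 ± 0.22 (SE; limma adjusted p = 0.000335), and -2.17 ± 0.20 (SE; adjusted p = 0.00343) in females alone.

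**Figure D2:**
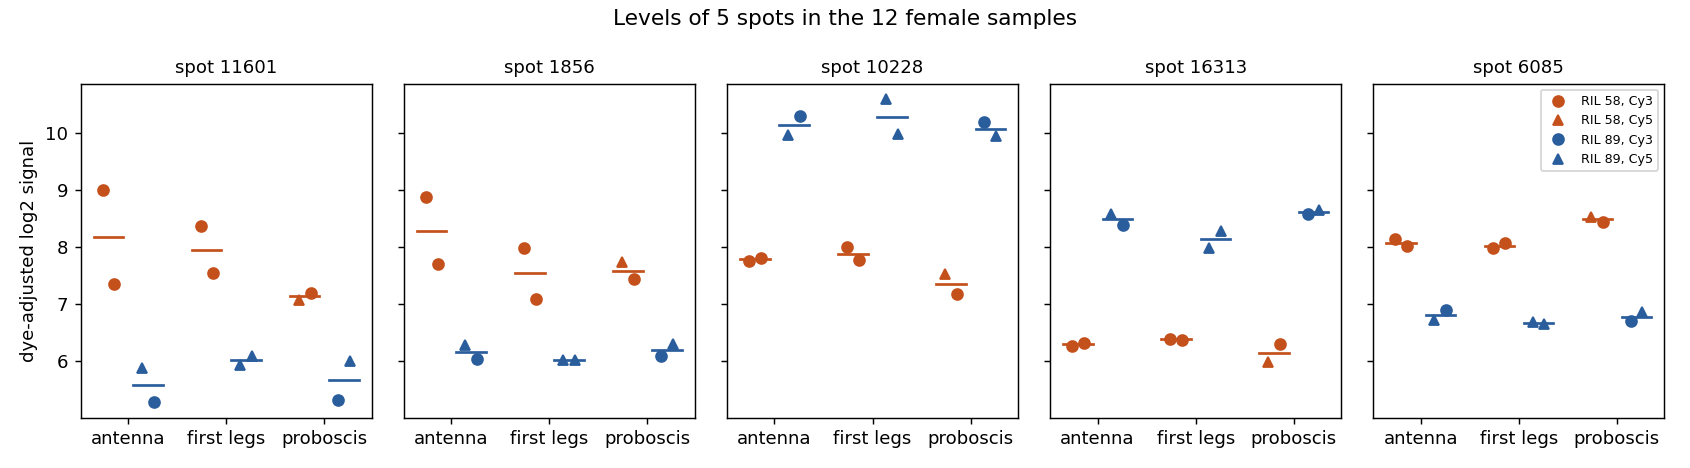
Dye-adjusted log2 signal, also adjusted for array set, of 5 spots in the 12 female samples by tissue, with RIL 58 left of RIL 89 in each tissue. Points are samples, shape gives the dye and bars are the means of 2 samples. Spots 11601, 1856 and 6085 are higher in RIL 58 and spots 10228 and 16313 are higher in RIL 89 in each tissue, with no overlap.

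The differences of the 54 spots ranged in size from 0.29 to 2.45, with a median of 0.89. Of the 22 beyond 1, 10 were higher in RIL 58 and 12 in RIL 89, and 7 of the 54 were under 0.5. Over all spots, the differences were centred on 0.00, with quartiles of -0.06 and 0.06, and 33 spots lay beyond 1. At 34 of the 54 the lower line lay within 0.5 of the median level or below it, as does the mean of 79.4% of all spots. At these 34 the background correction and its offset set part of the size of a difference. At 11 of them both lines lay in that range, with differences of at most 0.65. At 43 of the 54, no RIL 58 value overlapped the RIL 89 values over all 6 and 6 samples, against 1.61% of all spots. The samples are those that chose the spots, so these shares describe the calls and do not support them.

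Some of the 54 may repeat one another. Across the array, many spots near its start had a profile close to that of a spot about 17000 places later. Among the 54 there were 10 such pairs with both spots called, 16997 to 17063 places apart and correlated at 0.937 to 0.994 over the 24 samples. In 6 pairs both were higher in RIL 58 and in 4 pairs both were higher in RIL 89, and the differences within a pair were 0.01 to 0.34 apart. The pairing was noticed in these values and rests on them, and the files do not say which spots share a probe. With each pair counted once, 44 spots were left. The counts for single tissues and for other tests below were not merged in this way. Spot 1856 has such a partner, at an r of 0.980, and spots 11601, 10228 and 16313 have none.

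The question of whether a difference repeats in each tissue was put to each tissue on its own. In the antenna 42 spots were called (0.186% of those tested), 10 higher and 32 lower in RIL 58, a balance that turned round without either RIL 58 sample. In the proboscis 36 were called (0.159%), 11 higher and 25 lower in RIL 58. In the first legs 1 was called (0.00443%), which was higher in RIL 58, and 1018 spots had an unadjusted p under 0.05. In female legs line and dye coincide, so the leg difference rests on a dye effect estimated in the other samples, and its median SE over all spots was 0.12, against 0.11 in the antenna and 0.10 in the proboscis. The spots called in both antenna and proboscis numbered 9, and 1 was called in all 3 tissues. Of the 54 called over tissues, 17 were also called in the antenna, 1 in the legs and 21 in the proboscis, and 25 in no single tissue.

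By direction the repeat was wider than by calls. All 54 had the same sign in the 3 tissues, as did 43.3% of all spots, and at all 54 the 2 RIL 58 samples of each tissue did not overlap the 2 RIL 89 samples, as at 6.21% of all spots. An unadjusted p under 0.05 was found at 54 of them in the antenna, 53 in the legs and 54 in the proboscis, against 1165, 1018 and 1258 of the 22575 spots tested. Their median size was 0.79 in the antenna, 0.77 in the legs and 1.01 in the proboscis, while that of all spots was 0.07, 0.09 and 0.07 in the same order. The call is on the mean over tissues and uses these same samples, so it favours spots of 1 sign.

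**Figure D3:**
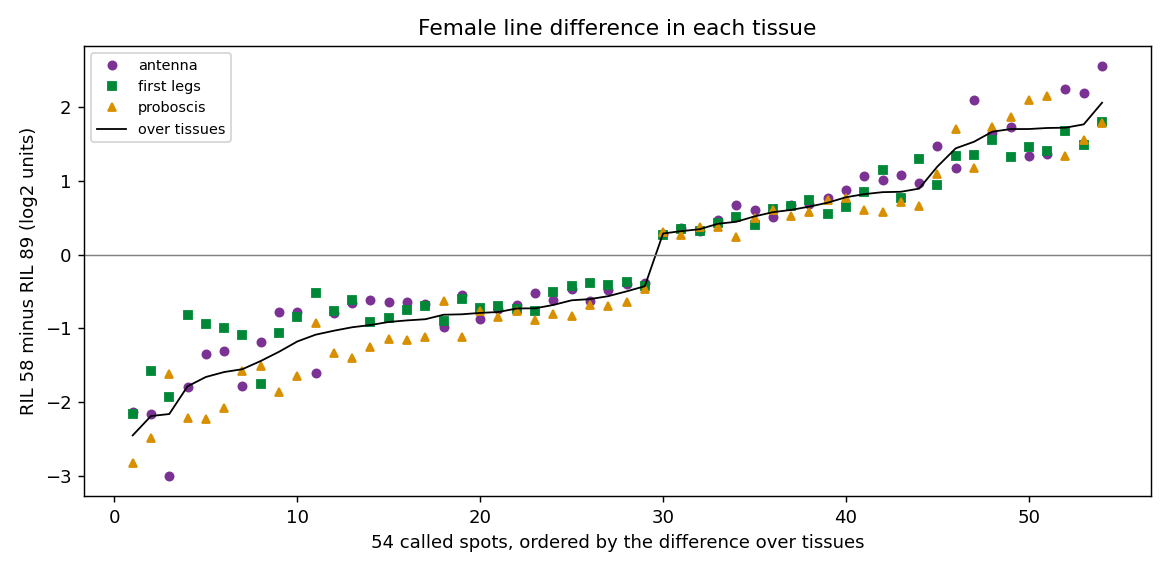
Female line difference, RIL 58 minus RIL 89 in log2 units, in antenna, first legs and proboscis at the 54 called spots, ordered by the difference over tissues (line). All points of the 29 spots higher in RIL 89 lie below 0 and all points of the 25 spots higher in RIL 58 lie above it.

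Spot 6085 (row 29, column 65) was the spot called in each of the 3 tissues. Its antenna levels were 8.13 and 8.01 in RIL 58, against 6.72 and 6.89 in RIL 89. Its first leg levels were 7.98 and 8.07 in RIL 58, against 6.69 and 6.66 in RIL 89. Its proboscis levels were 8.53 and 8.44 in RIL 58, against 6.70 and 6.86 in RIL 89. Samples of 1 line and tissue differed by at most 0.17, which is a small part of the distance between the lines. The difference was 1.17 ± 0.13 in the antenna (SE; limma adjusted p = 0.00205), 1.34 ± 0.15 in the legs (SE; adjusted p = 0.0121) and 1.71 ± 0.13 in the proboscis (SE; adjusted p = 7.02e-05). Over tissues it was 1.44 ± 0.12 (SE; adjusted p = 5.24e-05), and in females alone 1.47 ± 0.15 (SE; adjusted p = 0.0051). With a dye effect for each tissue added, with 1 dye effect for all arrays, or without background correction, no spot was called in the legs. With each sample scaled to 1 median, the 2 leg calls were both lower in RIL 58 and did not include spot 6085. Without the RIL 89 leg replicate 4 this spot was not called in the legs either.

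Some pairs of female samples of the same tissue needed no dye adjustment, because both were in the same dye and on the same array set. These were RIL 58 replicate 2 and RIL 89 replicate 3 of the proboscis in Cy3, RIL 58 replicate 1 and RIL 89 replicate 4 of the proboscis in Cy5, and RIL 58 replicate 1 and RIL 89 replicate 4 of the antenna in Cy3. No such pair exists in the legs. All 54 spots had the sign of their difference in each of the 3 pairs, as did 27.0% of all spots. Taken in that direction, the median difference was 0.92 in the Cy3 proboscis pair, with a range of 0.14 to 3.01, and 1.14 in the Cy5 proboscis pair, with a range of 0.09 to 2.66. It was 0.91 in the antenna pair, with a range of 0.15 to 3.72. With the fitted dye effects the medians were 1.01 in the proboscis and 0.79 in the antenna. The 3 pairs are part of the same 12 samples.

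A joint test of whether the line difference itself differed between tissues called 8 spots (0.0354% of those tested), none of them among the 54. Of the 54, 14 had an unadjusted p under 0.05 in that test, against 3.93% of all spots. In the antenna 6 of the 8 were called, with differences of -2.35 to -0.62. The differences of these 6 were -0.26 to 0.15 in the legs and -0.42 to 0.00 in the proboscis. The other 2 were called in the proboscis. The count was 1 with 1 dye effect for all arrays or with a dye effect for each tissue added. Without antenna replicates 1 to 4 in turn it was 26, 26, 30 and 6, without leg replicates 1 to 4 it was 17, 20, 33 and 20, and without proboscis replicates 1 to 4 it was 22, 107, 17 and 20.

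Spot 18692 (row 87, column 202) showed the smallest p in the joint test. It has a partner of like profile among the 8, at an r of 0.992, so the 8 may also hold repeats. Its antenna levels were 6.88 and 6.94 in RIL 58, against 8.04 and 8.14 in RIL 89. Its first leg levels were 6.66 and 6.76 in RIL 58, against 6.85 and 6.84 in RIL 89. Its proboscis levels were 6.57 and 6.54 in RIL 58, against 6.83 and 6.85 in RIL 89. The RIL 89 antennae stood apart from the other 10 female samples, which lay within 0.40 of one another. The antenna difference was -1.14 ± 0.10 (SE; limma adjusted p = 0.000271), with a joint adjusted p of 0.0152. At spot 18257 (row 85, column 197) the antenna difference was -0.62 ± 0.08 (SE; adjusted p = 0.00376), and the joint adjusted p was 0.0152. Its leg difference was 0.15 ± 0.09 and its proboscis difference 0.00 ± 0.08 (SE), both with an adjusted p of 1.

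The antenna also held most of the spots that were called in a tissue and not over tissues. Of its 42 calls, 25 were not called over tissues, and 23 of these were higher in RIL 89. Some of the 23 form pairs of like profile as described above, correlated at 0.946 to 0.992, and both spots of a pair are counted. The median size of the 25 was 1.18 in the antenna. Taken in the antenna's direction, it was 0.05 in the legs, with a range of -0.15 to 0.96. In the proboscis it was 0.27, with a range of -0.35 to 0.57. The joint test called 6 of the 25, so for most of them a difference between tissues was not shown. Spot 20251 (row 95, column 41) led those higher in RIL 89, with antenna levels of 8.06 and 7.76 in RIL 58, against 9.87 and 10.50 in RIL 89. Its levels elsewhere were 6.49 to 6.89 in RIL 58 and 6.64 to 7.28 in RIL 89. The antenna difference was -2.35 ± 0.25 (SE; limma adjusted p = 0.00204), with -0.03 ± 0.29 in the legs and -0.42 ± 0.24 in the proboscis (SE), neither called.

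The 25 spots were also followed in the male tissues. The male mean was highest in the antenna at 24 of them, against 34.7% of all spots, and exceeded both other tissues by more than 1 at 12, against 0.691% of all spots. At others the lead was small, as at spot 18257, with 6.16 in the antenna, 6.14 in the legs and 6.09 in the proboscis. A call in the female antenna is likelier where there is signal. The choice of the 25 therefore favours antenna spots, and these shares only describe them. The median level of the 25 was 7.45 in RIL 58 antennae and 8.54 in RIL 89 antennae, with male antennae at 7.87. At 24 of the 25 the male antenna mean lay between the female line means. The 25 were chosen for a gap between those means, and the male mean averages both labels and all replicate numbers. The choice therefore favours this order, and the count only describes the 25. The males entered the fit that called these spots through its dye and array set terms and its spread, and no test was made of their tissue order.

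**Figure D4:**
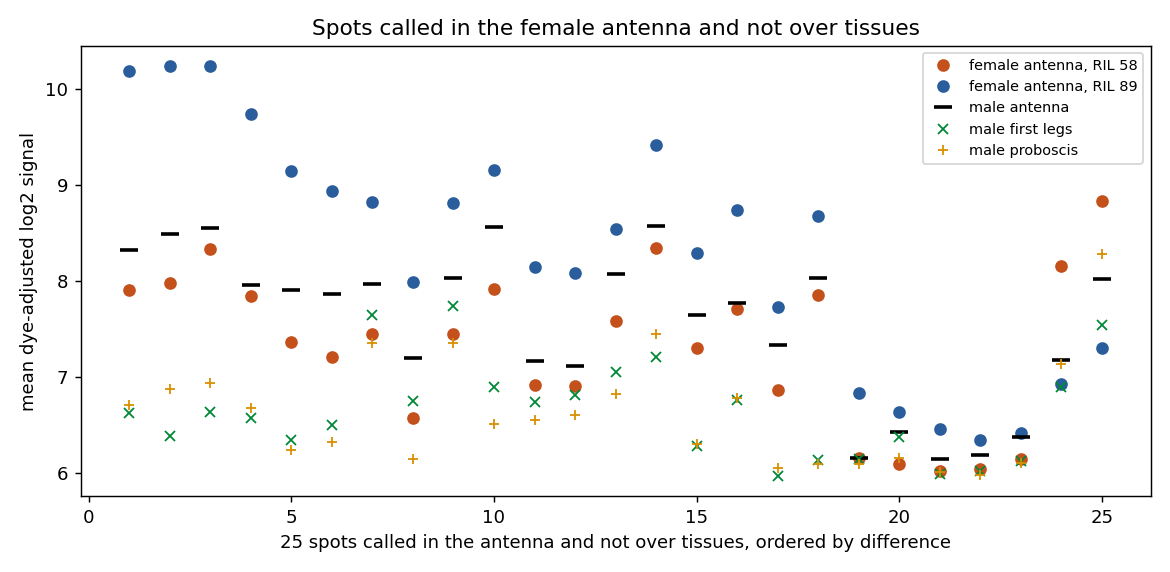
Mean dye-adjusted log2 signal, also adjusted for array set, at the 25 spots called in the female antenna and not over tissues, ordered by the antenna difference: RIL 58 and RIL 89 female antennae (means of 2 samples), and male antenna, first legs and proboscis (means of 4 samples). At 23 spots RIL 89 is above RIL 58. At 24 spots the male antenna mean lies between both lines, which the choice of spots with a gap between the lines favours.

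A list of antenna spots drawn from the males was therefore followed in the females. It holds the 156 spots whose male mean in the antenna exceeded both other tissues by more than 1, and it was made after these values were seen. Its median level was 8.73 and 8.54 in the RIL 58 antennae, against 9.20 and 9.35 in the RIL 89 antennae. The antenna difference had a median of -0.25 over the list and was below 0 at 112 of the 156, or 71.8%, while over all spots the median was 0.00 and 49.1% were below 0. In females the list's median difference was 0.09 in the legs and -0.10 in the proboscis. The corresponding list of 147 leg spots had a median difference of 0.06 in the antenna, -0.20 in the legs and 0.03 in the proboscis. That of 56 proboscis spots had 0.11 in the antenna, 0.23 in the legs and 0.00 in the proboscis. Shifts of such lists were therefore not limited to antenna spots in the antenna. Against the mean of the 4 female antennae, the antenna list had a median of -0.03 and -0.24 in RIL 58 replicates 1 and 2, against 0.07 and 0.15 in RIL 89 replicates 3 and 4. The part of this in the 25 calls was not tested. The RIL 58 antennae also lay 1 on each array set, while both RIL 89 antennae lay on the set of 4.

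The antenna calls moved with single samples more than those over tissues. The antenna count was 17 without the RIL 89 replicate 4, 1 higher and 16 lower in RIL 58, of which 3 were among the 42. It was 106 without the RIL 89 replicate 3, 9 higher and 97 lower, sharing 33. The balance of directions turned round without either RIL 58 sample. Without the RIL 58 replicate 2 the count was 85, 61 higher and 24 lower, sharing 28, and without the RIL 58 replicate 1 it was 44, 28 higher and 16 lower, sharing 11. In each tissue the calls leaned towards higher signal in the line left with 1 sample. These fits therefore cannot show what the lean of the antenna calls towards RIL 89 rests on. In those fits the lone sample of a line is assumed to vary like the other groups. Among the antenna calls higher in RIL 58, spot 11601 led with a difference of 2.55 ± 0.46 (SE; limma adjusted p = 0.0486) and spot 18892 (row 88, column 187) followed with 2.24 ± 0.33 (SE; adjusted p = 0.0139). Spot 18892 lies 17036 places after spot 1856 and is its partner of like profile, at an r of 0.980. Of the antenna calls, spot 11142 (row 52, column 177) had the largest size, at -3.0 ± 0.37 (SE; adjusted p = 0.00305).

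In the proboscis, 15 of the 36 calls were not called over tissues, 6 higher and 9 lower in RIL 58, with a median size of 1.16. Taken in the proboscis direction, their median was 0.17 in the antenna and 0.28 in the legs. The male difference over tissues between replicates 1 and 2 and replicates 3 and 4 had a median of 0.06 in that direction. It was called at none of the 15 spots. None exceeded both other tissues by more than 1 in males, although 11 of the 15 were highest in the male proboscis, against 35.9% of all spots. Spot 16483 (row 77, column 143) had the largest difference among those higher in RIL 58, at 2.86 ± 0.46 (SE; limma adjusted p = 0.0206), with 0.51 ± 0.48 in the antenna and 1.09 ± 0.54 in the legs (SE). Before the fitted dye and array set effects were subtracted, its legs were at 5.89 and 6.07 in RIL 58, against 6.14 and 5.81 in RIL 89. Its antennae were at 6.22 and 5.96 in RIL 58, against 6.05 and 6.10 in RIL 89. Its differences in these tissues thus rest on the fitted effects at dim signal. Spot 1175 (row 6, column 100) followed at 2.15 ± 0.25 (SE; adjusted p = 0.000952). Spots 10228 and 16313 led those higher in RIL 89, at -2.84 ± 0.31 and -2.50 ± 0.26 (SE; adjusted p = 0.000778 and 0.000557). The proboscis count was 244 without the RIL 58 replicate 2, 207 higher and 37 lower in RIL 58, sharing 31 of the 36. Without the RIL 58 replicate 1 it was 39, 26 higher and 13 lower, sharing 16, so here too the balance turned round without either RIL 58 sample. It was 57 without the RIL 89 replicate 3, 7 higher and 50 lower, sharing 23, and 41 without the RIL 89 replicate 4, 4 higher and 37 lower, sharing 18. It was 27 to 45 without any antenna or leg sample. The leg count was 1 without any antenna or proboscis sample, and 13, 16, 47 and 11 without leg replicates 1 to 4.

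The same labels were then compared in males, which the choice of the 54 spots used only for the dye and array set terms and the spread. No spot was called between RIL 58 and RIL 89 in males (0% of those tested). The smallest limma adjusted p was 0.36, and 1443 spots had an unadjusted p under 0.05. At the 54 spots the male line differences were -0.26 to 0.25, 27 had the sign of the female difference, and 1 had an unadjusted p under 0.05. The 95% interval of the male line difference reached 0.22 to either side at these spots (median). At all 54 that interval left out the female difference. This takes no account of the SE of the female difference or of its choice for size. The direct test between the sexes, given below, called 24 of the 54.

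Grouping the males by replicate number gave another result. Replicates 1 and 2, called the first replicate pair from here on, differed from replicates 3 and 4, the second replicate pair, at 34 spots (0.151% of those tested), 12 higher and 22 lower in the first pair. Of these, 20 were among the 54 called in females, and 33 of the 34 had the same sign as the female difference. At the 54, the male difference between the replicate pairs had the sign of the female difference at all 54, as at 59.6% of all spots, and an unadjusted p under 0.05 at 45, as at 10.5% of all spots. In the female direction it was 0.07 to 2.52, with a median of 0.67. In the male proboscis, replicates 1 and 2 were Cy5 on the set of 4 arrays, and replicates 3 and 4 were Cy3 on the set of 8. Male antenna replicates 1 to 3 were Cy5 and replicate 4 was Cy3, while in the male legs each replicate pair held both dyes. The male difference between the replicate pairs thus leans on the fitted dye and array set effects. The count of 34 was 19 without male first legs replicate 1 and 7 without male first legs replicate 4. It was 24 to 38 without any other male sample.

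At some spots the male levels parted fully by replicate pair. At spot 10228 male levels were 6.86, 7.12 and 7.80 (lowest, median and highest) in replicates 1 and 2 and 8.96, 9.56 and 10.03 in replicates 3 and 4 (n = 6 each). By label the male levels were 6.86, 8.30 and 9.58 in RIL 58 and 7.01, 8.38 and 10.03 in RIL 89 (n = 6 each). The replicate pairs did not overlap, while the labels overlapped over nearly their whole range. The difference between the replicate pairs was -2.34 ± 0.25 (SE; limma adjusted p = 0.000367), against a difference between the labels of -0.05 ± 0.17 (SE; adjusted p = 0.971).

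Spot 6085, called in all 3 female tissues, gave 8.01, 8.31 and 8.66 in male replicates 1 and 2 and 6.62, 6.96 and 7.13 in male replicates 3 and 4 (lowest, median and highest, n = 6 each). The difference between the replicate pairs was 1.40 ± 0.12 (SE; limma adjusted p = 8.33e-05), close to the female difference of 1.44. Spot 1849 (row 9, column 129) led the male differences between the replicate pairs, at 1.97 ± 0.24 (SE; adjusted p = 0.00143), and spot 18885 (row 88, column 180) followed at 1.87 ± 0.20 (SE; adjusted p = 0.000367). These lie 17036 places apart and correlate at 0.988, so they form 1 of the pairs of like profile described above. Among the negative differences, spot 11142 led at -2.52 ± 0.33 (SE; adjusted p = 0.00226).

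The males were less clear at the spots with the largest rise in RIL 58. At spot 11601 male levels were 6.14, 7.16 and 7.61 in replicates 1 and 2 and 6.07, 6.38 and 7.03 in replicates 3 and 4 (lowest, median and highest, n = 6 each). At spot 1856 they were 6.35, 7.12 and 7.40 in replicates 1 and 2 and 5.87, 6.32 and 6.64 in replicates 3 and 4. The replicate pairs overlapped at both spots. The differences between them were 0.59 ± 0.34 and 0.60 ± 0.29 (SE), with limma adjusted p-values of 0.553 and 0.488.

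**Figure D5:**
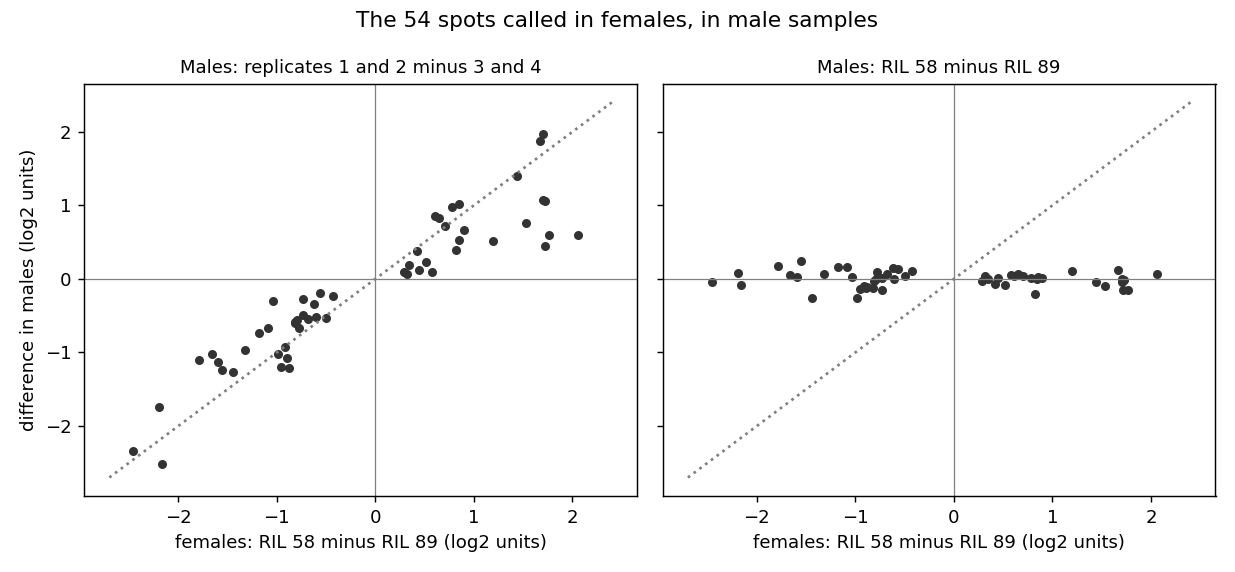
Differences in males at the 54 spots called in females, against the female difference, RIL 58 minus RIL 89, all in log2 units: left, male replicates 1 and 2 minus replicates 3 and 4; right, male RIL 58 minus RIL 89. The dotted line marks equal differences. All 54 points at left have the female sign, and the points at right lie between -0.26 and 0.25.

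The difference between the sexes was tested by label. The labels pair with replicate numbers differently in the sexes, so this contrast sets the female replicate pairs against a male grouping that crosses them. The labelled line difference in females minus that in males was called at 26 spots (0.115% of those tested), 11 higher and 15 lower. Of these, 24 were among the 54, with adjusted p-values of 0.000374 to 0.0389 in limma. At spot 10228 this difference was -2.41 ± 0.29 (SE; adjusted p = 0.00249), while the male difference between the replicate pairs, -2.34, lay close to the female difference of -2.45. Whether the female difference differed from the male difference between the replicate pairs was not tested. The count was 9 without background correction and 14 with 1 dye effect for all arrays. Without male antenna replicates 1 to 4 in turn it was 10, 11, 14 and 13, and without male leg replicates 1, 3 and 4 it was 11, 12 and 5. It was 14 and 9 without male proboscis replicates 3 and 4, and 23 to 30 without any of the remaining 3.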

How the data were processed

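The authors' scanner files give each spot's mean signal and mean background as linear intensity of 1 dye channel, and a quality score that is not explained, per the file headers. The deposited value table holds the natural log of signal minus background, as set against the scanner files (largest difference 9e-08), with column medians of 2.78 to 5.00. It was not used except as an alternative. The sources used here do not name the image program. The RNA was amplified with T7 RNA polymerase, per the labels' protocols.

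Background was corrected here with normexp (offset 50), followed by log2 and by quantile normalisation over the 24 samples. Spots were tested singly, none was left out, and no control spots are marked. Fits used limma 3.58.1 with statmod 1.5.0 in R 4.3.3, and figures used matplotlib 3.10.9 with pandas 2.3.3 in Python 3.11.15. All tests were two-sided, with a variance trend and the inferred array as a random block: array correlation 0.265 and 7 residual degrees of freedom with the 12 female samples, 0.525 and 12 over tissues with all samples, and 0.547 and 10 for single tissues. Adjusted p-values cover all 22575 spots. Fits with a sample left out kept the correlation of the full fit. The fits were tested on simulated data.

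The array sets were divided at the widest gap in channel correlation, 0.118, against 0.0842 for the next. The samples, lists, tests and array sets were chosen with earlier results of these data known. Spots named are the leading 2 per direction of each comparison among called spots (over tissues, also of the same sign in each tissue), and the leading 2 of the joint test. Gene and marker lists could not be used because the files name no genes. The number of arrays limits the precision.

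Replicate numbers did not pair the samples: deviations of same-numbered female samples correlated at -0.685 to 0.119. The alternatives were other background, normalisation, dye, block, variance and spot filters, the deposited table, and leaving out samples or tissues.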

Additional observations from a re-analysis of the deposited data

Results flagged for a closer look

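At spot 16313 the RIL 58 proboscis replicate 1, at 5.99, stood apart from the other 5 female RIL 58 samples, at 6.27 to 6.39. Its gap to the nearest of them was 0.70 of the range of the 6. In a single group of like samples, chance gives a gap of this size fewer than 1 time in 20. Here both lines were searched at each leading spot over tissues, and the 6 samples come from different tissues. That rate therefore does not apply to this gap. The RIL 58 proboscis replicate 1 was the only Cy5 sample of the 6. Before the fitted dye and array set effects were subtracted it was at 6.15, and the other 5 were at 6.19 to 6.42.

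The line difference differed between female tissues at spots 18692 and 18257, each with a joint limma adjusted p of 0.0152. In both, RIL 89 was higher in the antenna. Without the RIL 89 antenna replicate 4 the joint test called neither spot.

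The line difference by label differed between females and males at 26 spots by a direct test in limma, and the labels pair with replicate numbers differently in the sexes. At the 54 spots called in females, the male difference between replicates 1 and 2 and replicates 3 and 4 had the female sign at all 54 (59.6% of all spots). It was called at 20 (0.151% of all spots). By label 27 of the 54 had the female sign (50.8% of all spots).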

How the results depend on the processing

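Of the 22 alternatives for the count of 54 over tissues, 18 stayed within 1.5 times of it. The count was 26 with 1 dye effect for all arrays, all of them among the 54, and 31 to 50 without any 1 female sample. The count of 11 in females alone was 7 without background correction, 24 with each sample scaled to 1 median, 17 from the deposited table, 18 with no dye term and 19 with no variance trend. It was 0 without the antennae, 0 without the legs (848 and 526 spots with an unadjusted p under 0.05) and 1 without the proboscis, and 0 to 13 without any 1 sample. With the replicate block the counts were 12 in females alone and 74 with all samples. Without the array block the count with all samples was 77. The numbers do not pair the samples, and the groups compared share none. The antenna count of 42 was 26 with 1 dye effect for all arrays, and 17 to 106 without any 1 female sample. The proboscis count of 36 was 23 with each sample scaled to 1 median and 27 to 244 without any 1 female sample. The leg count of 1 was 0 without background correction, 0 with 1 dye effect for all arrays, 0 with a dye effect for each tissue added, 2 with each sample scaled to 1 median, and 1 to 47 without any 1 female sample. The count of 8 between tissues was 4 with each sample scaled to 1 median, 1 with 1 dye effect for all arrays, 1 with a dye effect for each tissue added, and 6 to 107 without any 1 female sample. In males the label count was 0 under all 15 alternatives. The count of 34 between the male replicate pairs was 15 with each sample scaled to 1 median, 17 with 1 dye effect for all arrays, and 7 to 38 without any 1 male sample. The count of 26 between the sexes was 9 without background correction, 14 with 1 dye effect for all arrays, and 5 to 30 without any 1 male sample. Spots 10228 and 16313 were called under all 22 alternatives (differences of -2.59 to -2.18 and -2.56 to -1.67). Spot 11601 missed the threshold in 3 (highest adjusted p 0.101) and spot 1856 in 2 (highest adjusted p 0.0614), both with the same direction throughout. The dye effect for each tissue and the filter on quality marks were chosen after the data were seen. The cause of these changes was not tested.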
